A study of Rattus norvegicus with 10 samples.

Results

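miR-499 and miR-208b are short regulatory RNAs that striated muscle makes from within its myosin genes, and they were followed here over 10 libraries of small RNAs from a rat model, collagen-induced arthritis (CIA). Members were taken by name, as every mature miRNA called miR-499 or miR-208 in the tables of counts, a rule that itself uses no value. Of 723 mature miRNAs listed, 6 have such names, namely both arms of miR-499, miR-208b and miR-208a. All rats were female Wistar rats immunized with bovine type II collagen, and no untreated healthy rat is among these libraries. The libraries form 5 groups of 2: before therapy (CIA_B), 1 h and 34 days after mechanical stimulation (MS_E and MS_A) and 1 h and 34 days after placebo (PLA_E and PLA_A). Mechanical stimulation, which the labels call acupuncture, was the insertion and twirling of a thin needle at points of the lower back and below the knee, and the placebo was an injection of saline into the peritoneum, so that the arms differ in the place and frequency of the intervention as well as in its kind. The sessions of stimulation were repeated every other day and the injections weekly, so that the groups at 34 days had repeated interventions. Ages, and whether the 2 libraries of a group come from separate rats, are not given in the labels, and the p-values below measure the spread between libraries, which may be technical.

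A miRNA is cut from a hairpin precursor, and the strand that is kept guides the silencing complex to messages that pair with its seed, the bases near its 5′ end. miR-208a, miR-208b and miR-499 are known to be encoded in introns of the myosin heavy chain genes Myh6, Myh7 and Myh7b. Of these, Myh7 encodes the heavy chain of slow muscle fibres and Myh6 a heavy chain of the heart. In skeletal muscle miR-499 and miR-208b are known as miRNAs of slow, oxidative fibres that repress inhibitors of the slow fibre programme. miR-1 and miR-133a, in contrast, are found in striated muscle at large, and miR-206 is a miRNA of skeletal muscle.

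The sequences of the mature miRNAs are shown because the members are related through their seeds. They are those of RefSeq for the rat assembly GRCr8, whereas the reads were aligned to rn4, so positions are given on GRCr8 only. All 6 members matched an entry. The prefix rno, for Rattus norvegicus, is left out elsewhere. Capitals mark bases 2 to 8 of each mature miRNA, counted from its 5′ end.
rno-miR-499-5p: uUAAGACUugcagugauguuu
rno-miR-208b-3p: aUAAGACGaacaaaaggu
rno-miR-208a-3p: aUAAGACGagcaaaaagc
rno-miR-499-3p: aACAUCACagcaagucugugcu
rno-miR-208b-5p: aAGCUUUUugcucgcguuau
rno-miR-208a-5p: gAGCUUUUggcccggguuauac

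The first 3 of these share bases 2 to 7, which read UAAGAC and stand in capitals before the last capital letter of each. No other miRNA among the 693 mature miRNAs of the RefSeq table has these bases, so that 3 of 693 (0.433%) hold them. With base 8 included they part into UAAGACU, of miR-499-5p alone, and UAAGACG, of miR-208b-3p and miR-208a-3p. miR-208b-3p and miR-208a-3p differ at 3 of 18 bases, written with the base of miR-208b-3p first and its position from the 5′ end as A10G, G16A and U18C. Reads of this pair could in part be exchanged by the counting, which was not tested.

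miR-499-5p lies at chr3:164570616-164570636 on the plus strand and miR-499-3p at chr3:164570653-164570674, inside Myh7b. miR-208b-3p lies at chr15:32421648-32421665 on the minus strand and miR-208b-5p at chr15:32421681-32421700, inside Myh7 and the non-coding gene LOC120096985. miR-208a-3p lies at chr15:32395568-32395585 on the minus strand, inside Myh6. The gene table used gives the span of each gene but no exons. The hairpins of the abundant pair are printed with both arms in capitals, to show which strand of each was read.
Mir499a: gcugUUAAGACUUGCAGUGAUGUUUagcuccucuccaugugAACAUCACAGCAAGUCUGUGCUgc
Mir208b: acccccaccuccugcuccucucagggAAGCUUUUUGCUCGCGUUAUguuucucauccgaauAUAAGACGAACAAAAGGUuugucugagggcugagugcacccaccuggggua

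Of the hairpin of miR-499 nearly all reads were of the first arm, and of that of miR-208b of the second, so that the abundant strand is in both the one that begins with the shared seed. Over all libraries miR-499-5p had 5986 counts and miR-499-3p 91, which is 1.497% of both arms and between 0.303% and 2.96% in single libraries. miR-208b-3p had 10818 counts and miR-208b-5p 10, which is 0.0924% of both arms. The 10 counts of miR-208b-5p were spread over 5 libraries, with at most 3 in a library. miR-208a-3p, the heart form, had 3 counts in CIA_B replicate 2, 2 in PLA_E replicate 1 and 0 in the other 8 libraries, and miR-208a-5p had 0 in all 10. A count of 0 allows up to 3 counts, equal to 2.60 cpm in CIA_B replicate 1 and at most 0.828 cpm elsewhere, where cpm denotes counts normalised for depth with the TMM method of edgeR. Reads are no independent molecules, so this limit and the intervals below hold counting error alone.

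The libraries held between 1513799 and 8926170 counts, the smallest being CIA_B replicate 1. The tissue is called muscle in the labels and subcutaneous tissue with its muscle in the description of the experiment. The study calls it dorsal and elsewhere describes tissue excised around the stimulated points, which include points below the knee. The sample titles do not name the site of each library, so a difference in site between libraries was not tested. A list of 8 skeletal muscle miRNAs (arms of miR-1, miR-133a, miR-133b and miR-206; miR-486 has no entry in the tables used) summed to between 84007 and 268970 cpm, while the counts of miR-208a amounted to at most 0.441 cpm, with the limits given above for the libraries at 0. In every group 1 library held several times more miR-1-3p than the other, namely CIA_B replicate 1, MS_E replicate 2, PLA_E replicate 1, MS_A replicate 2 and PLA_A replicate 1, at 80408 to 122980 cpm against 10117 to 15567 cpm. PLA_A replicate 1 also held 12802 cpm of a list of 6 leukocyte miRNAs against 591 to 1793 cpm in the other 9 libraries. MS_E replicate 1 held 449 cpm of 12 epithelial miRNAs against 33.8 to 135 cpm elsewhere.

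miR-499-5p was highest in a library of placebo at 34 days and lowest in both libraries taken 1 h after stimulation. Before therapy its level was 313 cpm in replicate 1 and 153 cpm in replicate 2. At 1 h it was 23.7 and 34.8 cpm after stimulation and 147 and 57.4 cpm after placebo, in the same order of replicates. At 34 days it was 156 and 55.9 cpm after stimulation and 335 and 79.8 cpm after placebo. Both MS_E libraries thus lay below the other 8, as they did for 5.01% of all miRNAs tested, and PLA_A replicate 1 was close to the higher library before therapy. These values rest on 154 to 1347 counts per library and place the miRNA between rank 75 and rank 174 of the list.

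miR-208b-3p stood above miR-499-5p in CIA_B and spread more widely afterwards. It reached 513 and 433 cpm before therapy. At 1 h it was 32.7 and 59.6 cpm after stimulation and 222 and 55.7 cpm after placebo. At 34 days it was 247 and 83.1 cpm after stimulation and 690 and 61.8 cpm after placebo, and the counts behind these values ran from 202 to 2941. The libraries before therapy were close to each other, whereas those of PLA_A were the highest of all and one of the lowest. Both MS_E libraries were below both of CIA_B, for miR-208b-3p as for miR-499-5p, which held for 13.1% of miRNAs tested. Of the 8 libraries after therapy 7 were below both of CIA_B, the exception being PLA_A replicate 1. For miR-499-5p the same held for 6 of 8, the exceptions being MS_A replicate 1 and PLA_A replicate 1 (PLA_E replicate 1 in place of MS_A replicate 1 by library size only). Among all 359 miRNAs tested, 10.3% had at least 6 and 3.34% at least 7 of these 8 libraries below both of CIA_B.

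**Figure D1:**
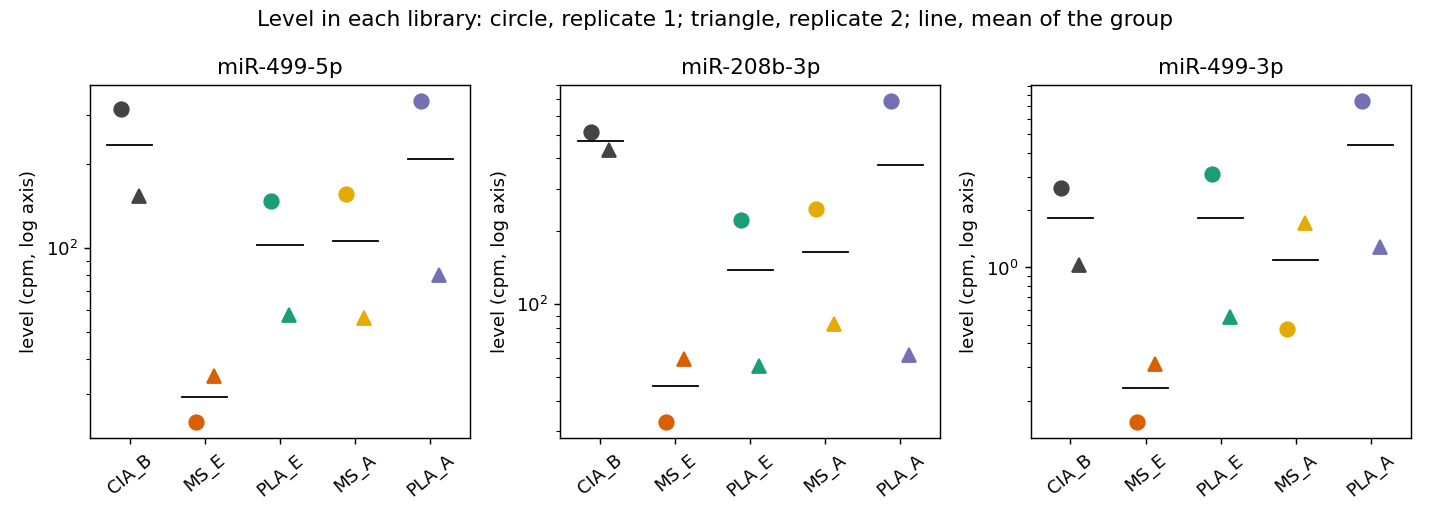
Level of miR-499-5p, miR-208b-3p and miR-499-3p (cpm, log axis) in each library, grouped by therapy and time, with circles for replicate 1, triangles for replicate 2 and a line at the mean of the group. The MS_E points of miR-499-5p, at 23.7 and 34.8 cpm, are the lowest of that panel, and the PLA_A points of miR-208b-3p are as far apart as 690 and 61.8 cpm.

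In group means of cpm both miRNAs followed 1 order, with CIA_B first, then PLA_A, MS_A, PLA_E and MS_E. This order depended on the scaling, since by library size only PLA_A came before CIA_B (259 against 201 cpm for miR-499-5p, 484 against 426 cpm for miR-208b-3p) and PLA_E before MS_A, with MS_E last in both. For miR-499-5p the means were 233 ± 113 cpm (SD, n = 2) in CIA_B, 208 ± 181 in PLA_A, 106 ± 70.7 in MS_A, 102 ± 63.6 in PLA_E and 29.3 ± 7.83 in MS_E. Among neighbours in this order only PLA_E and MS_E had libraries that did not overlap. Both MS_E libraries lay below the other 8, as they did for 5.01% of all miRNAs tested. For PLA_E and MS_E alone the share over all miRNAs was not computed, so no difference is read from it. For miR-208b-3p the means were 473 ± 57.1 cpm in CIA_B, 376 ± 444 in PLA_A, 165 ± 116 in MS_A, 139 ± 118 in PLA_E and 46.2 ± 19.1 in MS_E, and the libraries of every pair of neighbours overlapped.

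The first question of the design is what differs from the state before therapy. In the edgeR quasi-likelihood fit a miRNA counted as called at an unadjusted p under 0.05 with a change of more than 2-fold, which are the thresholds of the study. Of the 6 members 3 passed the filter on low counts, namely miR-499-5p, miR-208b-3p and miR-499-3p, the last of these with at most 30 counts in a library. At 1 h after stimulation miR-499-5p and miR-208b-3p were called lower, in a comparison in which 6.41% of the 359 miRNAs were called in either direction and 1.11% were called lower. miR-499-5p was 7.93-fold lower than in CIA_B, a log2 fold change of -2.99 with a standard error of 0.86 (edgeR, adjusted p = 0.373). miR-208b-3p was 10.2-fold lower, at -3.35 with a standard error of 1.12 (edgeR, adjusted p = 0.446). Neither passed the adjustment over all miRNAs in edgeR, where 0 of 359 did and 23 had an unadjusted p under 0.05. By adjusted p 8 miRNAs passed in DESeq2, among them miR-499-5p at 0.0161 and miR-208b-3p at 0.0377, and 0 passed in limma-voom, which gave both 0.601.

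With a library left out, an arm holds 1 library that is assumed to vary like the other groups, which supply the spread. Leaving out each of the 4 libraries in turn kept the call of miR-499-5p, and its log2 fold change ranged from -3.42 to -2.45. The call of miR-208b-3p was lost without MS_E replicate 1, and its range was -3.86 to -3.04. That MS_E library is the one with the most epithelial miRNAs, while MS_E replicate 2 held 119 cpm of them. The 6 tested members of their list had median levels of only 1.26 to 50.2 cpm over the libraries. In the same comparison 4 of these 6 were called higher and 0 lower, with a median log2 fold change of 4.43 beside 0.06 over all miRNAs. Of the leukocyte list 1 of 6 (median 0.84) and of the erythroid list 1 of 3 tested members (median 1.02) were called higher there. The part of other cell types in the result was not tested. In bulk tissue, fewer muscle fibres of a kind and less of a miRNA per fibre cannot be told apart.

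The other muscle miRNAs were not called there. Of the skeletal muscle list 6 of 8 were tested, and 0 were called in any of the comparisons made here. At 1 h after stimulation its median log2 fold change was -0.04, beside 0.06 over all miRNAs tested. miR-133a-3p, a repressor of smooth muscle genes in striated muscle, was at -0.26 with a standard error of 0.50, and miR-1-3p at -0.03 with a standard error of 1.53, the latter wide because of the 2 levels of miR-1-3p within each group.

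In the other 3 groups after therapy miR-499-5p and miR-208b-3p had values below CIA_B on average, and no member was called with all libraries. At 1 h after placebo the log2 fold change was -1.18 for miR-499-5p and -1.77 for miR-208b-3p (edgeR, adjusted p = 0.994 for both), where 0.557% of miRNAs were called. In this comparison 0 of 6 leukocyte (median 0.92), 0 of 6 tested epithelial (median 0.84) and 0 of 3 erythroid miRNAs (median 0.31) were called, beside a median of 0.07 over all miRNAs. At 34 days after stimulation the values were -1.14 and -1.52 (edgeR, adjusted p = 0.994 for both), with 1.11% called. Called higher there were 1 of 6 leukocyte miRNAs (median 0.88), 0 of 3 erythroid ones (median 1.26) and 0 of 6 tested epithelial ones (median 0.97). At 34 days after placebo 7.24% were called, 4 of 6 leukocyte miRNAs (median 2.95) and 2 of 3 erythroid ones (median 1.60) among them as higher. Of the tested epithelial miRNAs 0 of 6 were called (median 1.90). The part of these lists in the 3 groups was not tested. In PLA_A the values of miR-499-5p and miR-208b-3p were -0.16 (edgeR, adjusted p = 0.999) and -0.33 (adjusted p = 0.996), and both lay above 0 when libraries were scaled by their size only. The last values rest on 1 library, since without PLA_A replicate 1, the library rich in leukocyte miRNAs, they were -1.49 and -2.91, and miR-208b-3p was then called. The values of the other 2 groups also moved with single libraries, though they stayed below 0 and uncalled. At 1 h after placebo they ran from -2.02 (without PLA_E replicate 1) to -0.62 (without PLA_E replicate 2) for miR-499-5p and from -3.08 to -1.07, without the same libraries, for miR-208b-3p. At 34 days after stimulation they ran from -1.99 (without MS_A replicate 1) to -0.62 (without MS_A replicate 2) and from -2.47 to -1.002. These 4 comparisons share the CIA_B libraries, so they are not independent of each other.

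In the mean of the 4 groups after therapy both miRNAs were called lower than in CIA_B, in a comparison with 4.46% of miRNAs called and 1.95% called lower. The mean log2 fold change was -1.37 for miR-499-5p and -1.74 for miR-208b-3p, with standard errors of 0.58 and 0.73 (edgeR, adjusted p = 0.932 for both). The call of miR-499-5p was lost without CIA_B replicate 1, MS_E replicate 1, PLA_E replicate 2 or MS_A replicate 2, with a range of -1.799 to -0.86 over all libraries left out. That of miR-208b-3p was lost without either CIA_B library, MS_E replicate 1 or MS_A replicate 2, with a range of -2.37 to -1.55. Both were also lost when libraries were scaled by their size only, at -1.05 and -1.46. In the same comparison 2 of 6 leukocyte miRNAs (median log2 fold change 1.38) and 2 of 6 tested epithelial miRNAs (median 1.99) were called higher, and 0 of 3 erythroid ones (median 1.04), beside a median of 0.04 over all miRNAs, and their part in the result was not tested. An exact two-sided permutation test over the 8 libraries after and 2 before therapy gave p = 0.267 for miR-499-5p and p = 0.133 for miR-208b-3p, where the smallest p it can give is 0.0444.

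**Figure D2:**
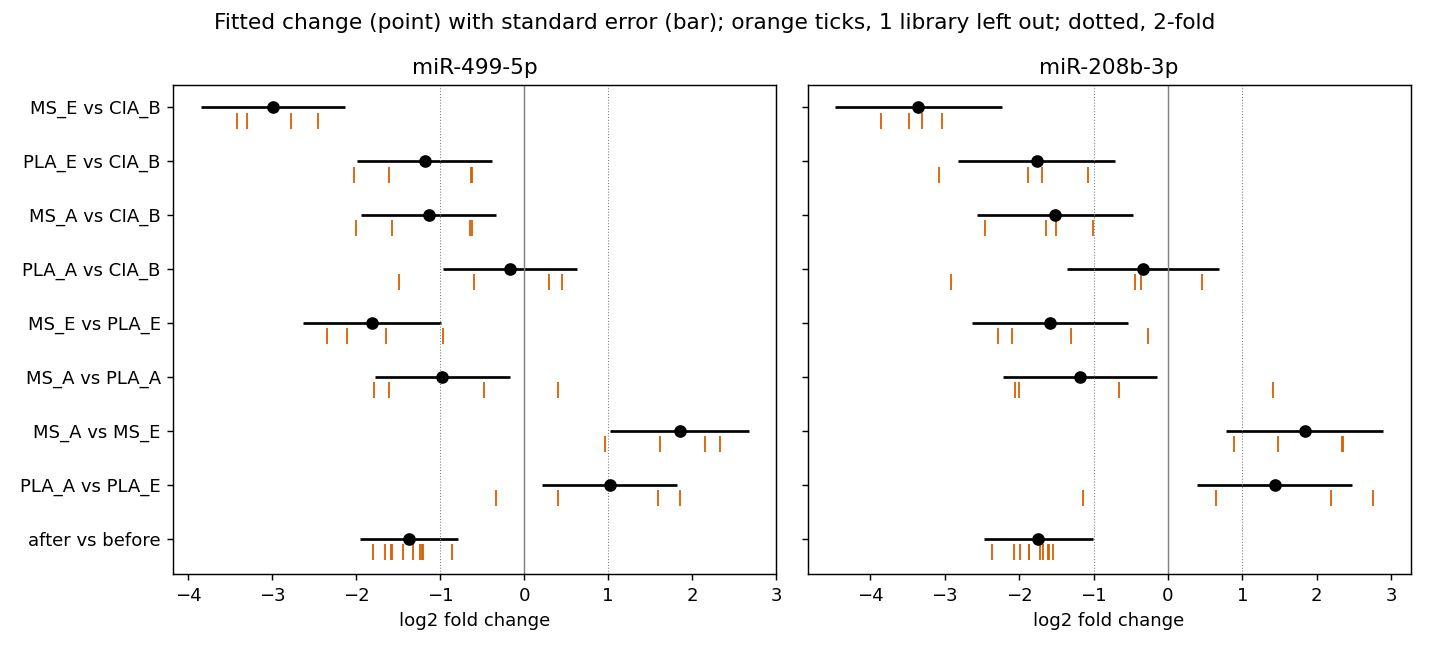
Fitted log2 fold change (edgeR, points) with 1 standard error (bars) of miR-499-5p and miR-208b-3p in 8 comparisons of pairs of groups and of all groups after therapy with CIA_B. Orange ticks are the values with 1 library left out, dotted lines mark 2-fold, and the ticks of comparisons with PLA_A fall on both sides of 0.

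The second question is whether the arms differ at equal times. At 1 h miR-499-5p was 3.50-fold lower after stimulation than after placebo, at a log2 fold change of -1.81 with a standard error of 0.82 (edgeR, adjusted p = 0.832), and it was not called. It passed under 7 other tools or settings, DESeq2 (-1.84) among them, and without PLA_E replicate 2 (-2.34). The range without single libraries was -2.34 to -0.97. miR-208b-3p was at -1.59 with a standard error of 1.05 (edgeR, adjusted p = 0.832), and without PLA_E replicate 1 its value was -0.27. In this comparison 3.9% of miRNAs were called and 0.836% were called lower, and 2 of 6 tested epithelial miRNAs were called higher (median log2 fold change 2.25 beside 0.03 over all miRNAs). At 34 days miR-499-5p was at -0.97 with a standard error of 0.80 and miR-208b-3p at -1.19 with a standard error of 1.04 (edgeR, adjusted p = 0.999 for both), with 1.95% of miRNAs called and 3 of 6 leukocyte miRNAs called lower (median -2.14). Without PLA_A replicate 1 both of the last values turned positive, to 0.40 and 1.41, and without PLA_A replicate 2 miR-208b-3p was called at -2.01.

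Over time both miRNAs were higher on average at 34 days than at 1 h in each arm, without a call. After stimulation the log2 difference was 1.85 with a standard error of 0.82 for miR-499-5p and 1.84 with a standard error of 1.06 for miR-208b-3p (edgeR, adjusted p = 0.906 for both), with 3.9% of miRNAs called and 2 of 6 tested epithelial ones called lower (median -2.26). The latter value was 0.89 without MS_A replicate 1 and 2.35 without MS_A replicate 2. After placebo it was 1.02 with a standard error of 0.80 and 1.43 with a standard error of 1.04 (edgeR, adjusted p = 0.999 for both), with 2.79% called and 3 of 6 leukocyte miRNAs called higher (median 2.10), and without PLA_A replicate 1 it was -0.33 and -1.14. The part of other cell types in these comparisons was not tested. Single libraries left out also gave calls, for miR-499-5p after stimulation without MS_A replicate 2 (2.33) and for miR-208b-3p after placebo without PLA_A replicate 2 (2.19). The difference between the arms in this change over time was 0.83 with a standard error of 1.13 for miR-499-5p and 0.40 with a standard error of 1.45 for miR-208b-3p (edgeR, adjusted p = 0.993 for both), where 3.34% of miRNAs were called, 1 of 6 leukocyte (median -1.94) and 1 of 6 tested epithelial ones (median -2.71) among them as lower. Left-out libraries moved the former between 0.001 (without PLA_E replicate 1) and 2.13 (without PLA_A replicate 1). Without PLA_A replicate 1 the latter was called at 2.93, and it was below 0 without PLA_E replicate 1, MS_A replicate 1 or PLA_A replicate 2.

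miR-499-3p, the minor arm of the same hairpin, was too rare for most of these comparisons. It had 3 and 7 counts before therapy, 1 and 2 counts at 1 h and 2 and 14 at 34 days after stimulation, and 23 and 2 counts at 1 h and 30 and 7 at 34 days after placebo. These counts are at or under 3 in 5 of the 10 libraries, so that no order of the low ones can be read from them. The highest was PLA_A replicate 1. Relative to CIA_B and to the TMM-scaled library sizes the summed counts gave a ratio of 0.185 in MS_E (exact 95% interval 0.0327 to 0.719), 1.79 in PLA_E (0.832 to 4.19), 1.02 in MS_A (0.437 to 2.53) and 3.10 in PLA_A (1.51 to 6.99). The edgeR fit called it lower in MS_E than in PLA_E at a log2 fold change of -2.93 (adjusted p = 0.832), on 3 counts against 25. This call was lost in limma-voom (-2.52) and with the replicate number as a block (-2.65). It was also lost without MS_E replicate 1 (-2.62), without MS_E replicate 2 (-3.46) and without PLA_E replicate 1 (-1.16). Calls appeared in MS_E against CIA_B with only the libraries compared (-2.60) and with the miR-1 split as a term (-3.003), in MS_A against PLA_A with the split (-1.85) and without PLA_A replicate 2 (-2.56), and in MS_A against MS_E with the split (2.06). miR-208b-5p had too few counts for any ratio.

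miR-499-5p and miR-208b-3p, which come from different chromosomes, varied together from library to library. Over the 10 libraries Pearson's r of log2(cpm + 1) was 0.953 (permutation p = 0.00012, adjusted p = 0.00036 over the 3 relations computed) and Spearman's rho was 0.927 (permutation p = 0.00038, adjusted p = 0.00114). Without the 2 libraries farthest from the median of miR-499-5p r was 0.919. The correlation of the deviations from the group means was 0.946, and the libraries of each group parted in the same direction for both, except those of CIA_B by library size only. Each was the other's closest match among the 358 other miRNAs tested. The libraries share their normalization and the permutation treats libraries of all groups as exchangeable, which limits both p-values.

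With miR-133a-3p, which all striated muscle holds, r was near 0 over the 10 libraries. For miR-499-5p r was 0.089 (permutation p = 0.802) and rho 0.0545 (permutation p = 0.892), and for miR-208b-3p r was -0.100 (permutation p = 0.778) and rho -0.0182 (permutation p = 0.973), with adjusted p-values of 0.802 for both r and 0.973 for both rho. Without the 2 farthest libraries r was -0.18 and -0.41, and r of the deviations from the group means was -0.40 and -0.60. By library size only r was 0.29 and 0.16 over all libraries and -0.68 and -0.77 without the 2 farthest, so that its sign depended on libraries and scaling. No such correlation is given for miR-1-3p, whose levels fall into 2 separate clusters. Both members were higher in the miR-1-rich library of their group in 4 of the 5 groups, the exception being MS_A, and for miR-208b-3p by library size only also CIA_B (392 against 461 cpm). The part of this split in their levels was not tested beyond a fit with the split as a term, in which both remained called in MS_E against CIA_B.

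**Figure D3:**
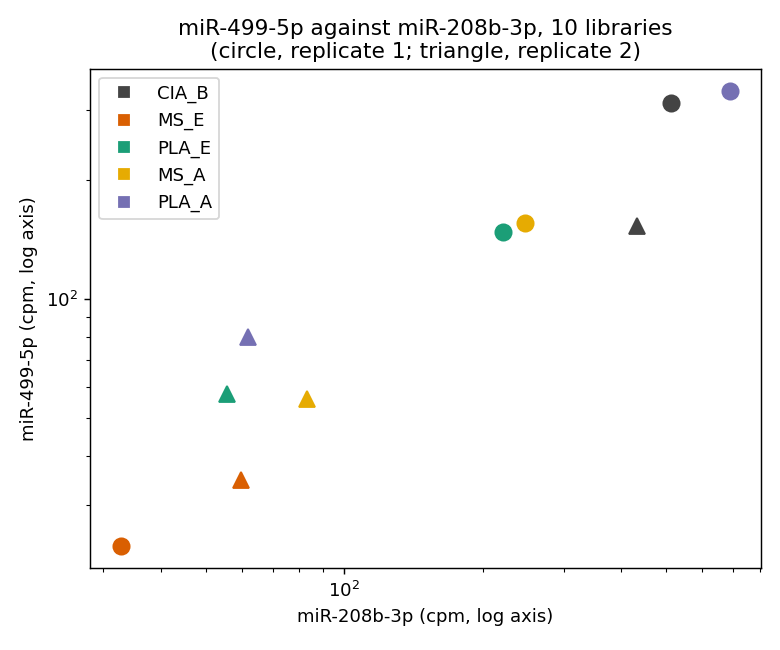
Level of miR-499-5p against that of miR-208b-3p (cpm, log axes) in the 10 libraries, coloured by group, with circles for replicate 1 and triangles for replicate 2. The points run along a diagonal (r = 0.953), with MS_E replicate 1 at its foot and PLA_A replicate 1 at its top.

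After the members themselves, the tested miRNAs most like miR-499-5p over the 10 libraries were miR-191a-3p (r = 0.78), miR-27a-3p (r = 0.75) and miR-24-2-5p (r = 0.65). For miR-208b-3p they were miR-1249 (r = 0.73), miR-195-5p (r = 0.68) and miR-191a-3p (r = 0.67). Across the 356 miRNAs compared the median r was 0.01 and 0.0044. These are the ends of a long list and are given as a description. miR-499-3p had an r of 0.76 with miR-499-5p and 0.71 with miR-208b-3p, at levels of 0.154 to 7.47 cpm.

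Both members were also set against miR-133a-3p in the same library. Per 1000 counts of miR-133a-3p there were 2.67 and 1.98 counts of miR-499-5p before therapy. At 1 h there were 0.350 and 0.371 after stimulation and 2.09 and 0.482 after placebo, and at 34 days 1.27 and 0.435 after stimulation and 3.76 and 0.573 after placebo. On this scale the MS_E libraries were the lowest and were nearly equal. This did not hold against miR-1-3p, which is split within each group, where MS_E replicate 1 had 2.00 counts of miR-499-5p per 1000, above PLA_E replicate 1 (1.62) and MS_A replicate 2 (0.455), nor against miR-206-3p, where it had 14.3 against 9.29 and 4.65. For miR-208b-3p there were 4.38 and 5.61 before therapy, 0.482 and 0.635 at 1 h and 2.01 and 0.646 at 34 days after stimulation, and 3.15 and 0.468 at 1 h and 7.74 and 0.443 at 34 days after placebo. Here replicate 2 of each of the other 3 groups after therapy was about as low as MS_E, and PLA_A replicate 2 was the lowest of all. The exact permutation test of 8 libraries against 2 on this scale gave p = 0.222 for miR-499-5p and p = 0.133 for miR-208b-3p.

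**Figure D4:**
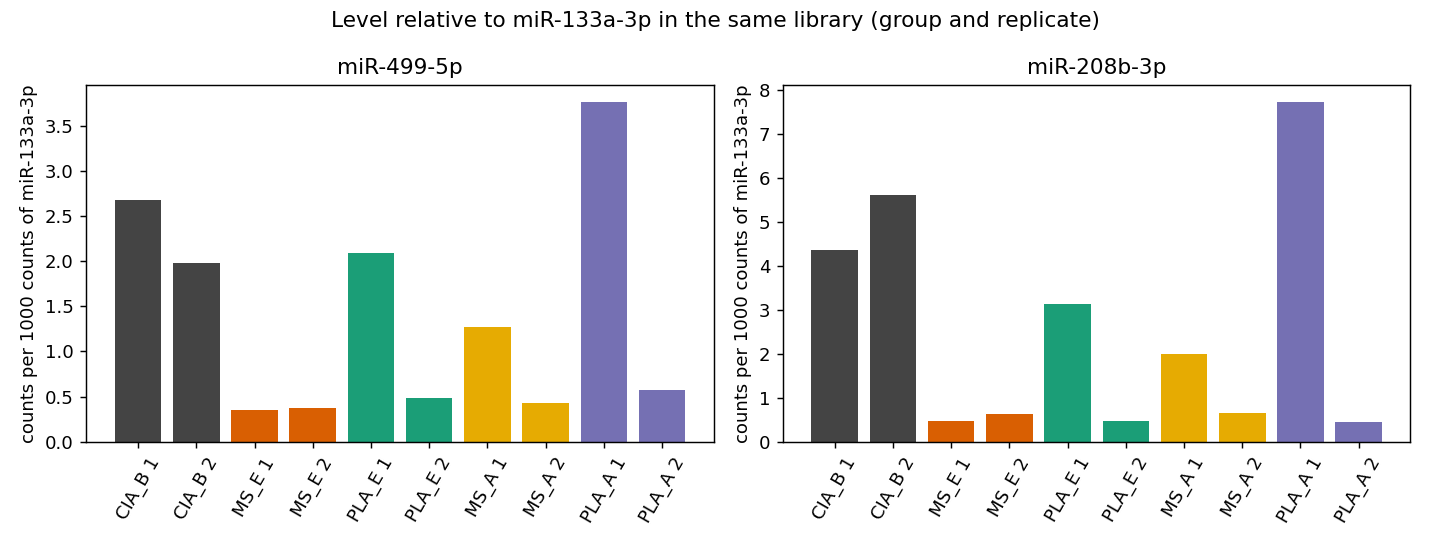
Counts of miR-499-5p and of miR-208b-3p per 1000 counts of miR-133a-3p in each of the 10 libraries, as bars from 0 coloured by group. In both panels CIA_B and PLA_A replicate 1 stand high, and MS_E and replicate 2 of the other 3 groups stand low. For miR-499-5p PLA_E replicate 1 (2.09) stands above CIA_B replicate 2 (1.98), and MS_A replicate 1 is at 1.27. For miR-208b-3p PLA_E replicate 1 (3.15) and MS_A replicate 1 (2.01) stand between.

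The balance between both members was not fixed. miR-499-5p made up 35.6% of their joint counts over all libraries. In single libraries the share was 37.9% and 26.1% before therapy, 42.1% and 36.9% at 1 h and 38.7% and 40.2% at 34 days after stimulation, and 39.9% and 50.7% at 1 h and 32.7% and 56.4% at 34 days after placebo. It was lowest in CIA_B replicate 2 (Wilson 95% interval 24.8% to 27.5%) and highest in PLA_A replicate 2 (52.9% to 59.8%), and the libraries of CIA_B, PLA_E and PLA_A parted by more than 10 percentage points within the group. These are shares of reads and not of molecules, since the ligation of adapters in library preparation favours some sequences over others.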

How the data were processed

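Small RNA libraries (TruSeq small RNA kit) were made from total RNA from 10 tissue samples, 2 in each of 5 groups, and groups were taken from the labels. The authors de-multiplexed the reads with CASAVA 1.8, then trimmed them, mapped them on rn4 and miRBase and quantified them with miRDeep2. Bowtie is also named in the submitters' processing notes. Raw counts were deposited, as whole numbers, for every pair of precursor and mature miRNA. The largest count over the precursors of a mature miRNA was used. Another 20 columns, in a table for all samples, have names that could not be tied to a sample and were left out.

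The deposited counts were scaled by TMM and fitted by quasi-likelihood in edgeR 4.0.16 (R 4.3.3), in 1 fit of all 10 libraries, on 359 miRNAs that reached 1 cpm in 5 or more libraries, with Benjamini-Hochberg adjustment over all of them and a prior count of 0.125. With 2 libraries against 2 no exact permutation test can reach 0.05, and none was made. Shares and ratios were computed in Python 3.11.15 with scipy 1.17.1, and correlations with 100000 resamples.

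The members, marker lists and tests were chosen with earlier results of these data known. Named miRNAs are the members, the skeletal muscle list (miR-1, miR-133a, miR-133b, miR-206, miR-486), and the 3 miRNAs most correlated with each of miR-499-5p and miR-208b-3p. The other marker lists were cardiac (miR-208a), erythroid, leukocyte, epithelial, smooth muscle and endothelial miRNAs. The alternatives were DESeq2 1.42.0, limma-voom (limma 3.58.1), DESeq2's size factors, library size only, no filter, summed counts, only the libraries compared, pseudocounts of 0.5 and 5, the ratio to miR-133a-3p, the replicate number as a block, a term for the miR-1 split and each library left out. The same for miR-499-3p was added after the data were seen.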

Additional observations from a re-analysis of the deposited data

How the results depend on the processing

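Under the other tools, scalings and filters both miR-499-5p and miR-208b-3p stayed called lower in MS_E than in CIA_B, and of 292 values under an alternative 245 kept direction and side of the threshold, 22 newly passed, 12 no longer passed and 13 changed sign, miR-499-3p not counted. All values here are log2 fold changes unless named otherwise, and the causes of the shifts were not tested. For miR-499-5p, MS_E against PLA_E, -1.81 and just outside the threshold, passed with DESeq2's size factors (-1.84), library size only (-2.13), DESeq2 (-1.84), no filter (-1.87), summed counts (-1.81), only the libraries compared (-1.76) and the miR-1 split as a term (-1.71). Its difference between MS_A and MS_E passed with DESeq2's size factors (1.799), DESeq2 (1.8004), no filter (1.87), only the libraries compared (1.92) and the split (2.09). For miR-208b-3p only the libraries compared gave calls in MS_A against CIA_B (-1.58), PLA_E against CIA_B (-1.72) and MS_A against MS_E (1.90). With library size only, the comparison of PLA_A with CIA_B became 0.37 for miR-499-5p and 0.18 for miR-208b-3p, while the median of all miRNAs moved from 0.12 to 0.42, so that both remained below it. Also with library size only, all groups after therapy against CIA_B lost the call, at -1.05 for miR-499-5p and -1.46 for miR-208b-3p, and the correlation of miR-208b-3p with miR-133a-3p was 0.16. limma-voom lost that call for miR-499-5p (-1.45). With the split as a term miR-499-3p in PLA_E against CIA_B was at -0.27.

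Whether the replicate numbers pair the libraries was not settled. The correlation of replicate 1 deviations over 10 pairs of groups ran from -0.554 to 0.634 with a median of -0.307. This correlation over all tested miRNAs cannot exclude pairing, since the miR-1 split falls on replicate 1 in some groups and replicate 2 in others. With the replicate number as a block, the standard error of miR-499-5p in MS_E against CIA_B went from 0.86 to 0.67. With the replicate number as a block, the difference of miR-499-5p between MS_A and MS_E passed (1.49) and miR-499-3p lost its call in MS_E against PLA_E (-2.65). The number of miRNAs called went from 2 to 1 in PLA_E against CIA_B, from 7 to 4 in MS_A against PLA_A and from 12 to 7 between arms over time, and by less than 1.5 times in the other 7 comparisons, among them 23 to 21 in MS_E and 26 to 21 in PLA_A against CIA_B.

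Leaving out 1 library at a time gave these ranges, with the lone library of an arm assumed to vary like the other groups. For miR-499-5p they were -1.49 to 0.46 in PLA_A against CIA_B, -2.34 to -0.97 in MS_E against PLA_E, -1.79 to 0.40 in MS_A against PLA_A, 0.97 to 2.33 in MS_A against MS_E, 0.001 to 2.13 for the difference between arms over time, -0.33 to 1.86 in PLA_A against PLA_E and -1.799 to -0.86 after against before therapy. For miR-208b-3p they were -3.86 to -3.04 in MS_E against CIA_B, -2.91 to 0.45 in PLA_A against CIA_B, -2.05 to 1.41 in MS_A against PLA_A, 0.89 to 2.35 in MS_A against MS_E, -1.14 to 2.75 in PLA_A against PLA_E, -2.37 to -1.55 after against before therapy and -0.91 to 2.93 for the difference between arms over time. For miR-499-3p they were -1.71 to 0.19 in MS_A, -1.42 to 1.01 in PLA_E and -0.25 to 2.17 in PLA_A, each against CIA_B, -0.56 to 2.91 in PLA_A against PLA_E, -1.05 to 0.18 after against before and -0.70 to 2.73 for the difference between arms over time. In MS_E against PLA_E its range was -3.61 to -1.16.

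Over all alternatives the number of miRNAs called ran from 16 to 41 in MS_E (23 as reported), 1 to 12 in MS_A (4), 1 to 10 in PLA_E (2) and 9 to 49 in PLA_A (26), each against CIA_B, from 7 to 37 in MS_E against PLA_E (14), 1 to 14 in MS_A against PLA_A (7), 6 to 32 in MS_A against MS_E (14), 3 to 21 in PLA_A against PLA_E (10), 4 to 22 after against before (16) and 3 to 17 between arms over time (12). Depth limits miR-208b-5p and miR-208a, whose counts lie at or under the limit that a count of 0 allows in all libraries, and miR-499-3p in 5 of 10.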

Other observations

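Levels of the other marker lists were as follows. The erythroid miRNAs (miR-451 and miR-144) summed to 17.5 to 24.2 cpm in CIA_B and to 17.4 to 88.5 cpm in the groups after therapy. The smooth muscle miRNAs (miR-143 and miR-145) summed to 27017 to 101577 cpm, lowest in MS_E replicate 2, with 77910 cpm in MS_E replicate 1. The endothelial miR-126 summed to 4268 to 14719 cpm, lowest in MS_E replicate 1, with 10913 cpm in MS_E replicate 2. Of the tested members of both lists 0 were called in MS_E against CIA_B.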
